A study of Rattus norvegicus with 10 samples.

Results

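The comparison covered 5 of the 10 libraries of an RNA sequencing study of rat heart cells in primary culture: 3 libraries of cardiomyocytes and 2 of cardiac fibroblasts, all in serum-free medium without phenylephrine. They were chosen by their labels alone, and no measured value entered the choice. Both cell types came from the ventricles of rats aged 1 to 3 days, freed with enzymes and then parted into fractions on a Percoll density gradient. The cardiomyocytes were not passaged and were counted at plating, whereas the fibroblasts were at passage 2 and were plated uncounted, so that cell type and passage cannot be told apart. In every dish the medium was changed at 24 h after plating to serum-free medium, and the other 5 libraries came from sister groups of both cell types that also received 10 µM phenylephrine, a drug that activates alpha1-adrenergic receptors. The labels name no strain and do not say whether a replicate was its own culture or animal, so p-values here rest on the spread between libraries, which may be technical. The question addressed was how far the transcriptomes of the contractile cell and of the matrix-forming cell of the heart lie apart before any agonist is added.

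As background, a cardiomyocyte shortens when an action potential, carried by sodium, calcium and potassium channels, opens ryanodine receptors on its internal calcium store and the released calcium switches on the sarcomere, the lattice of myosin and actin filaments. The ATP for this work comes mainly from mitochondria that burn fatty acids. A cardiac fibroblast lays down, crosslinks and degrades the collagens, elastic fibres and proteoglycans around the muscle cells, grips them through integrins, and in culture takes on features of a myofibroblast, with actin stress fibres and strong matrix synthesis.

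Levels are given in CPM (counts scaled to the normalized size of each library), for cardiomyocyte replicates 1, 2 and 3 and then for fibroblast replicates 1 and 2. They are not divided by gene length and are compared between libraries for the same gene or for the sum of the same list. In a sum, long and abundant genes weigh most, and a gene's part is a part of the counts. Log2 differences are cardiomyocytes minus fibroblasts with their standard error, and a gene was called where edgeR's quasi-likelihood test gave a Benjamini-Hochberg adjusted p below 0.05 over all 13869 genes tested. Total counts ran from 18737317 to 22794744 in the 3 cardiomyocyte libraries and were 20217665 and 19715598 in the 2 fibroblast libraries. The share of counts on mitochondrially encoded genes was 6.62% to 7.39% in cardiomyocytes and 3.05% to 3.26% in fibroblasts. Cell type lay along the first principal component, with 94.4% of the variance. The next, with 2.76%, set cardiomyocyte replicate 2 apart from replicates 1 and 3. A chi-square of the counts, divided by its degrees of freedom, was 22.5 and 23.4 between that library and its group mates, 4.32 between replicates 1 and 3, and 15.1 between the fibroblast libraries. Of 9239 genes at 10 CPM or more in cardiomyocytes, 276 were more than 1.5-fold higher and 141 more than 1.5-fold lower in replicate 2 than in the mean of the other two, and its values are given with each result that they touch.

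The labels were set beside markers of each cell type. The markers were chosen with earlier results of these data known, so they describe the labels and cannot test them. The summed level of 8 cardiomyocyte markers was 38300, 39000 and 37700 CPM in cardiomyocytes and 594 and 609 CPM in fibroblasts, where Tnnt2, cardiac troponin T, supplied 551 and 565 CPM of it. The summed level of 11 fibroblast markers was 5380, 9190 and 5690 CPM in cardiomyocytes and 41200 and 54300 CPM in fibroblasts. Of those 11 markers, 9 were lower in cardiomyocytes, Dcn (decorin) was not called, and Lum (lumican) was higher, with 74.2, 67.2 and 99.4 CPM in cardiomyocytes, against 27.5 and 45.5 CPM in fibroblasts and a log2 difference of 1.14 ± 0.29, a call that was lost without fibroblast replicate 1 (0.82, adjusted p = 0.0706). Each marker group was thus far higher in sum in the cell type of its label, and fibroblast marker transcripts were measurable in every cardiomyocyte library. The sum was highest in replicate 2, but the collagen Col1a1 supplied 4321, 7890 and 4402 CPM of the 3 cardiomyocyte sums. Col11a1, Eln and Thy1 were also highest in replicate 2 among cardiomyocytes, whereas Dcn and Lum were lowest there. In such bulk cultures, fewer cells of a type and less RNA per cell cannot be told apart.

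A closer look at 5 of the markers shows the range of the differences. Myh6, the alpha cardiac myosin heavy chain, had 4697, 4962 and 4319 CPM in cardiomyocytes, against 4.81 and 5.63 CPM in fibroblasts (log2 difference 9.80 ± 0.34). Nppa, atrial natriuretic peptide, had 21944, 21312 and 21492 CPM in cardiomyocytes, against 27.4 and 28.3 CPM in fibroblasts (9.60 ± 0.18). Ryr2, the calcium release channel of the store, had 582, 699.5 and 686 CPM in cardiomyocytes, against 1.01 and 1.04 CPM in fibroblasts (9.31 ± 0.18). The libraries of the groups lay far apart for all 3, and the replicates of each group lay close together. Col11a1, a minor fibrillar collagen, had 12.7, 25.8 and 12.8 CPM in cardiomyocytes, against 1115 and 1019 CPM in fibroblasts (-5.97 ± 0.46). Eln, elastin, had 226, 416 and 213 CPM in cardiomyocytes, against 9828 and 17908 CPM in fibroblasts (-5.60 ± 0.35). For both matrix genes the groups did not overlap, and cardiomyocyte replicate 2 had the highest cardiomyocyte value.

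**Figure D1:**
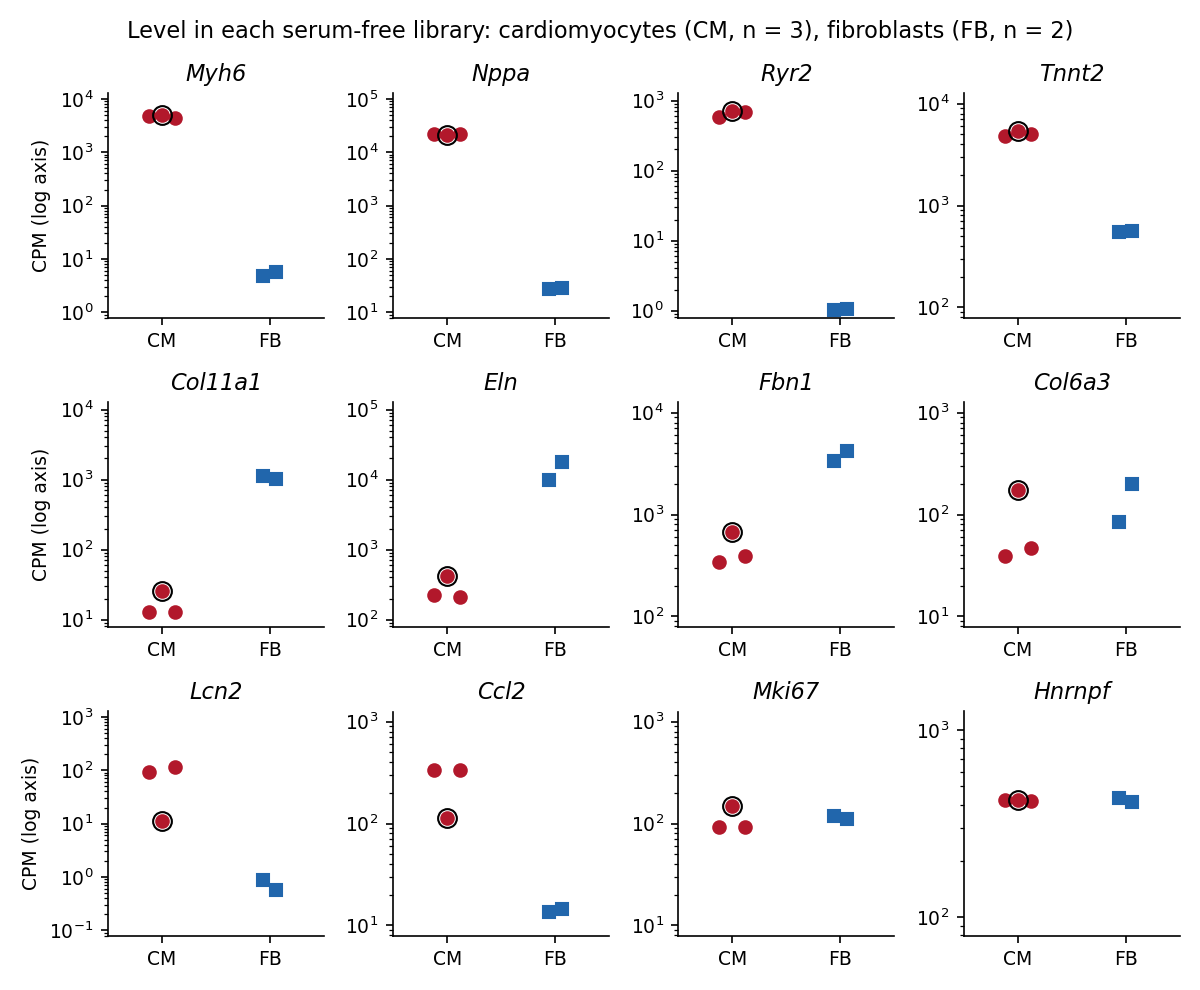
Levels of 12 genes in each serum-free library, in CPM on log axes that differ between panels; circles are the 3 cardiomyocyte libraries (CM) with replicate 2 ringed, squares are the 2 fibroblast libraries (FB). Myh6, Nppa, Ryr2 and Tnnt2 sit far higher in cardiomyocytes and Col11a1, Eln and Fbn1 far lower, replicate 2 stands apart from its mates for Col6a3, Lcn2, Ccl2 and Mki67, and Hnrnpf lies between 414 and 431 CPM in all 5 libraries.

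Promoter sequences of the markers are shown because the markers define the comparison. Each is the 250 bases before the annotated start of the gene in RefSeq (build GRCr8, which is not the build of the counts), written along the gene's strand. RefSeq entries were given for 4 of the 5 markers, and all 4 are printed. Capitals mark matches, on either strand, to any of 6 short motifs. The string of TEAD factors (GGAATG) occurs in 12.1% of all 33469 promoter windows of this length. The string of AP-1 (TGANTCA) occurs in 6.34% of the windows, and that of GATA factors (AGATAA) in 10.3% of them. The MEF2 motif occurs in 2.96% of the windows and the SRF motif in 1.5%, and the TATA box (TATAAA) in 12.9%.
Nppa, chr5:163711934-163712183, plus strand: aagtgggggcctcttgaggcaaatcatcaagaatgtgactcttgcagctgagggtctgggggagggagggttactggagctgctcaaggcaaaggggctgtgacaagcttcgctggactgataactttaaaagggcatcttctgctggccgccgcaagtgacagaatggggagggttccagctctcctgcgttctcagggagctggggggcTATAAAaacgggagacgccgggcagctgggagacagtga
Myh6, chr15:32411698-32411947, minus strand: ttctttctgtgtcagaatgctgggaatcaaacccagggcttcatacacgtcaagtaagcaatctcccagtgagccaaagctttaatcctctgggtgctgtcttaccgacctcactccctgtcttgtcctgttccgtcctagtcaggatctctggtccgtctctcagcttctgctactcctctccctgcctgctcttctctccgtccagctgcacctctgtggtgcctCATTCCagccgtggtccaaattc
Ryr2, chr17:63081277-63081526, plus strand: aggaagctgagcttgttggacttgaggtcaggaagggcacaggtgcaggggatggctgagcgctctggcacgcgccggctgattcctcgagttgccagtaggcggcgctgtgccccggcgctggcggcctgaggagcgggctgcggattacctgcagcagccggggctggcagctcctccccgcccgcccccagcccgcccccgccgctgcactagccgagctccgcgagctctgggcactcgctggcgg
Col11a1, chr2:204508886-204509135, plus strand: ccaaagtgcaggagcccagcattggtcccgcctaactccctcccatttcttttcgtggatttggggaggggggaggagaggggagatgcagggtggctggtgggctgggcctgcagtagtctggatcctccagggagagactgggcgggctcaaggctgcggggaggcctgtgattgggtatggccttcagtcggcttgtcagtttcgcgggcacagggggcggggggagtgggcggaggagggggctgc
The Nppa window holds a TATA box that begins 39 bases before the start. The Myh6 window holds the TEAD string, on the opposite strand, beginning 23 bases before the start. None of the 6 motifs lies in the Ryr2 or the Col11a1 window. A match is a string of letters and not a measured binding site.

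Across all genes the cell types differed widely. Of the 13869 genes tested, 9169 were called (66.1%), 4779 higher in cardiomyocytes (34.5%) and 4390 lower (31.7%). A difference of at least 2-fold was called for 3972 genes (28.6%), 2463 higher (17.8%) and 1509 lower (10.9%). At 32-fold or more the split was uneven, with 444 genes higher in cardiomyocytes (3.2%) and 17 lower (0.123%). Many calls were small, since 3238 called genes differed by less than 1.5-fold, and the median absolute log2 difference was 0.51. The libraries of the groups did not overlap for 10684 genes (77%). In the authors' deposited table, 8574 genes had an adjusted p below 0.05 for the same comparison, of which 8489 were called here and all in the same direction.

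**Figure D2:**
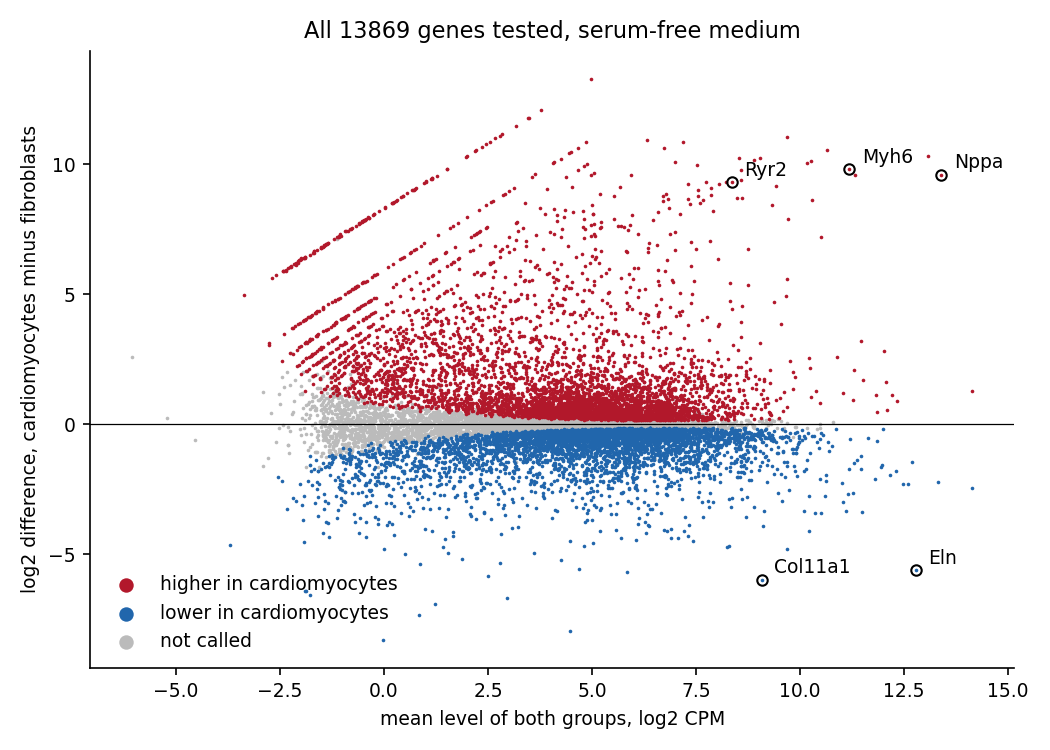
Each point is 1 of the 13869 genes tested; the horizontal axis is the mean level of both groups in log2 CPM and the vertical axis is the fitted log2 difference, cardiomyocytes minus fibroblasts. The 4779 genes called higher reach differences above 10 and the 4390 called lower mostly stay above -5; the diagonal streaks are genes with 0, 1 or a few counts in fibroblasts, and the 5 markers are circled.

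The largest differences, ranked among genes whose groups did not overlap, mixed muscle genes with others in both directions. Tnni3k, a heart muscle kinase, had 55.8, 70.8 and 62.03 CPM in cardiomyocytes and no count in either fibroblast library, which makes it at least 813-fold higher against a floor of 3 counts over the group. On the same floor Kcnj11, the pore of the ATP-sensitive potassium channel, was at least 361-fold higher, Gpr22, an orphan receptor of heart and brain, at least 168-fold and Tecrl, a reductase-like protein whose loss causes arrhythmia in humans, at least 289-fold. Genes not known from sarcomeres ranked there too: Hamp, the iron hormone hepcidin, was at least 149-fold higher, with 10.8, 3.80 and 18.3 CPM in cardiomyocytes, and Ptgds, which makes prostaglandin D2, at least 293-fold. The fitted log2 difference of Hamp was 10.77, and 10.15 without cardiomyocyte replicate 3. Smyd1, a methyltransferase needed for building sarcomeres, had 149, 163 and 169 CPM in cardiomyocytes and 3 counts in fibroblasts, a ratio of 2082-fold (exact 95% counting interval 712 to 10099). Among genes lower in cardiomyocytes, Ighm, the immunoglobulin mu heavy chain, had 0.289, 0.107 and 0.128 CPM in cardiomyocytes, against 56.5 and 32.4 CPM in fibroblasts (-7.94 ± 0.36). Dpp6, an auxiliary subunit of potassium channels, had 0.145, 0.161 and 0.128 CPM in cardiomyocytes, against 17.4 and 13.4 CPM in fibroblasts (-6.69 ± 0.26). Tbxa2r, the thromboxane receptor, had 2.31, 3.53 and 2.25 CPM in cardiomyocytes, against 64.05 and 61.4 CPM in fibroblasts (-4.55 ± 0.15). Ramp1, a receptor partner of the calcitonin family, had 1.50, 3.43 and 1.45 CPM in cardiomyocytes, against 47.8 and 59.2 CPM in fibroblasts (-4.69 ± 0.25).

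The contractile apparatus was higher throughout. All 13 sarcomere genes tested were called higher, with a median log2 difference of 8.7 (8.63 with genes at 0 in fibroblasts set to their bound), against 0.0182 over all genes. Mybpc3, the cardiac myosin-binding protein C, had 2321, 2336 and 2275 CPM in cardiomyocytes, against 2.53 and 1.88 CPM in fibroblasts (10.03 ± 0.20). Ankrd1, a stretch-responsive titin partner, had 6729, 8068 and 6999 CPM in cardiomyocytes, against 1253 and 835 CPM in fibroblasts (2.80 ± 0.17). Csrp3, a Z-disc protein, had 843, 1035 and 984 CPM in cardiomyocytes, against 0.911 and 0.729 CPM in fibroblasts (10.17 ± 0.19). Tcap, which caps titin at the Z-disc, had 8.44, 11.9 and 7.10 CPM in cardiomyocytes and no count in fibroblasts, at least 117-fold higher. Of 8 kinases of the titin and myosin families, 7 were higher, among them Alpk3 (8.45 ± 0.17), Alpk2 (8.15 ± 0.17) and Speg (4.60 ± 0.20). The exception was Mylk, the myosin light chain kinase of smooth muscle and non-muscle cells, with 33.8, 56.1 and 38.5 CPM in cardiomyocytes, against 151 and 220.0 CPM in fibroblasts (-2.12 ± 0.25). The chaperones that fold myosin split in the same manner: Unc45b, the striated muscle form, had 304, 322 and 321 CPM in cardiomyocytes, against 0.961 and 0.573 CPM in fibroblasts (8.67 ± 0.18). Unc45a, the general form, had 54.5, 59.99 and 56.2 CPM in cardiomyocytes, against 99.6 and 104 CPM in fibroblasts (-0.84 ± 0.065). Of the 14 chaperones and small heat shock proteins tested, 13 were higher, including Hspb7 (4.69 ± 0.16), Hspb6 (2.73 ± 0.10) and Bag3 (1.39 ± 0.086), and Cryab, alphaB-crystallin, which fibroblasts also held in quantity, at 1668, 1678 and 1593 CPM in cardiomyocytes, against 853 and 732 CPM in fibroblasts (1.05 ± 0.086).

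Muscle isoforms were set beside a counterpart, in most cases the broadly expressed form of the same protein, in 37 pairs with both members tested. The muscle form was called higher in 36 pairs, with a median log2 difference of 5.47. The counterpart was lower in 15 pairs, higher in 17 and not called in 5, with a median of -0.01, so that 15 pairs split with the muscle form higher and the counterpart lower. Actins gave such a split, Actc1 (cardiac) at 10.30 ± 0.23 and Actb (beta) at -1.72 ± 0.12. So did alpha-actinins (Actn2 8.63 ± 0.17, Actn1 -1.12 ± 0.16), caveolins (Cav3 5.90 ± 0.17, Cav1 -2.49 ± 0.18), filamins (Flnc 1.66 ± 0.099, Flna -2.12 ± 0.18), tropomyosins (Tpm1 1.69 ± 0.12, Tpm4 -1.72 ± 0.14), and desmin against vimentin (Des 7.90 ± 0.11, Vim -1.24 ± 0.15). Translation elongation factor 1 alpha split as well, with Eef1a2, the form of muscle and nerve, at 9.23 ± 0.18 (9.87 without fibroblast replicate 2) and Eef1a1, the general form, at -0.65 ± 0.083. In the 16 pairs of energy metabolism, the counterpart was higher in 12, lower in 2 (Acaca, -0.35 ± 0.066, and Fabp5, -0.79 ± 0.14) and not called in 2 (Ckb, -0.01 ± 0.21, and Prkaa1, -0.02 ± 0.068). Ldhb and Ldha, the subunits of lactate dehydrogenase, stood at 4.56 ± 0.096 and 2.09 ± 0.13, the hexokinases Hk2 and Hk1 at 1.34 ± 0.17 and 1.49 ± 0.069, the adenine nucleotide carriers Slc25a4 and Slc25a5 at 1.34 ± 0.090 and 1.29 ± 0.086, and the cytochrome oxidase subunits Cox6a2 and Cox6a1 at 8.68 ± 0.17 and 1.24 ± 0.13. The troponin I pair was higher in both forms, Tnni3 (cardiac) at 9.31 ± 0.20 and Tnni1 (slow skeletal and fetal heart) at 10.22 ± 0.15. The muscle member that was not called was Fkbp1b, a binding partner of Ryr2, with 2.17, 2.46 and 3.15 CPM in cardiomyocytes, against 1.72 and 2.76 CPM in fibroblasts. Near copies such as Myh6 and Myh7 or the muscle actins can share reads, and how the counting treated such reads is not given in the sources used here.

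**Figure D3:**
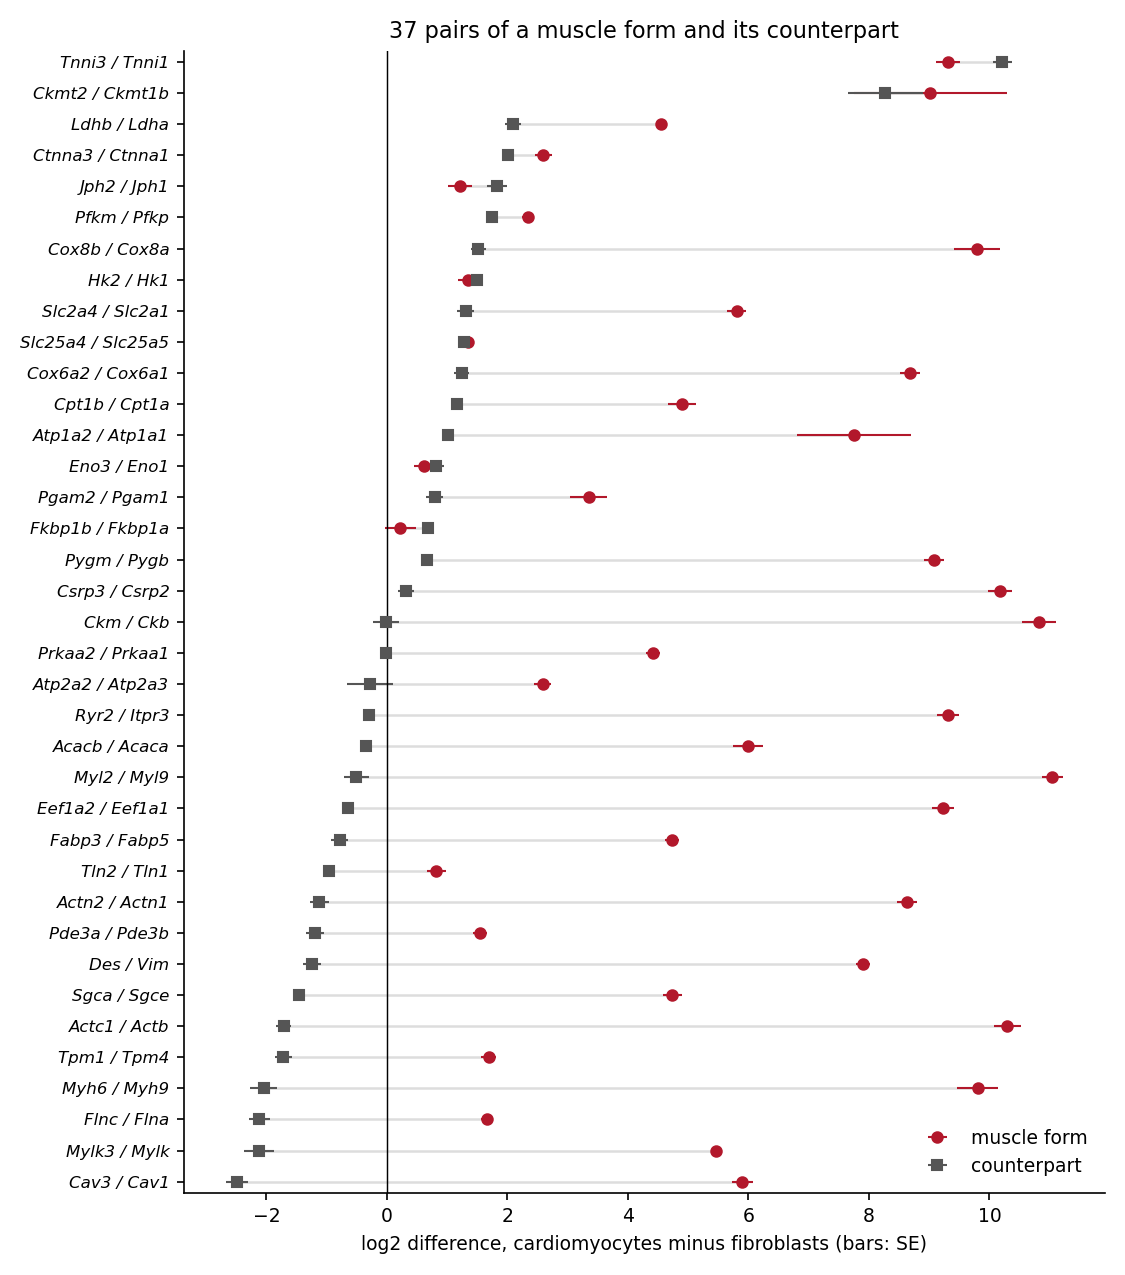
Log2 difference, cardiomyocytes minus fibroblasts, with its standard error, for the muscle form (circles) and its counterpart (squares) of 37 pairs, ordered by the counterpart. Circles lie right of 0 in every pair, while squares run from -2.49 for Cav1 to 10.22 for Tnni1 and lie left of 0 for structural proteins such as Actb, Flna and Cav1.

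Cell junctions and the membrane showed further contrasts. Of 23 genes of the intercalated disc and cell junctions, which couple heart muscle cells end to end, 19 were higher, 3 lower and 1 not called. The desmosomal cadherin Dsg2 had 170.2, 166 and 189 CPM in cardiomyocytes, against 0.658 and 0.834 CPM in fibroblasts (7.87 ± 0.12). Gja1, the main gap junction protein of the ventricle (connexin 43), had 964, 608 and 944 CPM in cardiomyocytes, against 23.4 and 17.5 CPM in fibroblasts (5.36 ± 0.25), with the lowest cardiomyocyte value in replicate 2. Cdh2, N-cadherin, which both cell types use, had 756, 707 and 807 CPM in cardiomyocytes, against 198 and 222 CPM in fibroblasts (1.85 ± 0.083). The 3 lower genes were Vcl, vinculin (-0.97 ± 0.11), Ctnnb1, beta-catenin (-0.30 ± 0.062), and Jup, plakoglobin (-0.22 ± 0.067), whose call was lost without fibroblast replicate 2 (-0.14, adjusted p = 0.135) and with scaling by library size alone (adjusted p = 0.0996). Gjc1, connexin 45, was the gene not called (0.00 ± 0.12). Xirp1 and Nrap, actin-binding proteins of the growing disc, stood at 8.81 ± 0.18 and 9.31 ± 0.17. Cardiac fibroblasts instead had more of Cdh11, cadherin 11, at 61.6, 87.1 and 67.9 CPM in cardiomyocytes, against 210.3 and 212 CPM in fibroblasts (-1.55 ± 0.18), and of Itga11, the collagen-binding integrin alpha11, at 8.83, 25.2 and 11.01 CPM in cardiomyocytes, against 276 and 385 CPM in fibroblasts (-4.48 ± 0.45). Of 28 integrin and focal adhesion genes, 9 were higher in cardiomyocytes and 17 lower. Itgb1, the shared beta1 subunit, was lower (-1.59 ± 0.13), as were Itga8 (-2.98 ± 0.28) and Itgav (-0.49 ± 0.083), whereas the muscle laminin receptor Itga7 had 259, 343 and 231 CPM in cardiomyocytes, against 42.1 and 34.2 CPM in fibroblasts (2.86 ± 0.17) and the fibronectin receptor Itga5 was higher (1.26 ± 0.098).

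The caveolar genes divided by isoform: Cav3, Murc (a muscle cavin, 8.59 ± 0.28) and Trim72, a membrane repair protein (8.86 ± 0.20), were higher, and Cav1, Cav2 (-2.73 ± 0.11) and Ptrf, the general cavin (-0.94 ± 0.11), lower. In the dystrophin complex, which ties actin to laminin, 7 of 17 genes were higher and 6 lower, a share called of 76.5% against 66.1% of all genes. The sarcoglycans Sgca (4.74 ± 0.16) and Sgcd (3.01 ± 0.17) were higher, Sgce, the form of non-muscle tissue, was lower (-1.47 ± 0.074), and Dmd, dystrophin, differed little, with 174, 204 and 186 CPM in cardiomyocytes, against 156 and 157 CPM in fibroblasts (0.27 ± 0.070). Dtna, alpha-dystrobrevin, was higher (3.57 ± 0.12) and Large, which adds the laminin-binding sugar to dystroglycan, lower (-2.12 ± 0.14).

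Excitation genes were mostly higher. Among potassium channel genes 17 of 20 were higher and 2 lower, and among sodium, calcium and pacemaker channels 17 of 25 were higher and 5 lower. Cacna1c, the L-type calcium channel, had 92.2, 115 and 97.9 CPM in cardiomyocytes, against 29.5 and 34.3 CPM in fibroblasts (1.67 ± 0.12), and its accessory subunit Cacnb2 was higher by more (7.55 ± 0.15). The T-type calcium channels Cacna1g and Cacna1h and the pacemaker channel Hcn4, all typical of immature or conducting heart cells, stood at 6.72 ± 0.14, 4.78 ± 0.27 and 7.14 ± 0.28. Cacna1g and Hcn4 are also on a list of conduction and pacemaker genes, which did not rise as a whole. Of its 13 genes tested, 4 were higher, 6 lower and 3 not called, with a median log2 difference of -0.21. Kcnh2, which carries a repolarizing current, had 51.2, 54.2 and 50.6 CPM in cardiomyocytes, against 1.77 and 2.14 CPM in fibroblasts (4.73 ± 0.31). Kcnj2, the inward rectifier that holds the resting potential, had 17.02, 16.5 and 14.8 CPM in cardiomyocytes, against 2.53 and 1.67 CPM in fibroblasts (2.93 ± 0.23). The potassium channels that ran the other way were Kcnd3, a pore of the transient outward current, with 18.7, 14.7 and 16.7 CPM in cardiomyocytes, against 146 and 123 CPM in fibroblasts (-3.01 ± 0.098), and Kcnv2, a modifying subunit (-3.43 ± 0.25). Piezo1, a stretch-gated channel, was also lower, with 89.9, 121 and 88.6 CPM in cardiomyocytes, against 331 and 336 CPM in fibroblasts (-1.74 ± 0.14), and so was Scn7a, a sodium channel of non-excitable cells, with 0.772, 2.09 and 0.638 CPM in cardiomyocytes, against 15.1 and 19.7 CPM in fibroblasts (-3.94 ± 0.32, or -4.62 without cardiomyocyte replicate 2).

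Calcium store genes followed the same lines, 17 of 25 higher and 7 lower. Pln, phospholamban, which restrains the calcium pump, had 1433, 1124 and 1531 CPM in cardiomyocytes, against 2.73 and 1.98 CPM in fibroblasts (9.17 ± 0.24), whereas the pump Atp2a2, used by every cell, had 3363, 3219 and 3209.9 CPM in cardiomyocytes, against 575 and 512 CPM in fibroblasts (2.59 ± 0.14). Casq2 (calsequestrin, 8.41 ± 0.21) and Srl (sarcalumenin, 9.39 ± 0.22) bind calcium inside the store and were among the largest differences. The sodium-calcium exchanger Slc8a1 was higher (2.78 ± 0.12). The inositol trisphosphate receptor Itpr1 had 80.6, 96.1 and 80.5 CPM in cardiomyocytes, against 170.1 and 172 CPM in fibroblasts (-0.997 ± 0.076) and the plasma membrane pump Atp2b4 had 18.5, 33.7 and 18.2 CPM in cardiomyocytes, against 71.3 and 90.1 CPM in fibroblasts (-1.79 ± 0.24), both lower in cardiomyocytes.

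Genes of chambers and of other muscles were both measured in the ventricular cultures. Of 12 ventricular chamber genes tested, 11 were higher and 1 lower, and of 13 atrial ones 10 were higher and 3 lower. All members tested of both lists were thus called, against 66.1% of all genes. Ventricular Myl2 had 1518, 1697 and 1697 CPM in cardiomyocytes, against 0.809 and 0.729 CPM in fibroblasts (11.04 ± 0.18) and Myl3 stood at 10.52 ± 0.26. The atrial light chains were also higher in cardiomyocytes: Myl7 had 180.2, 217 and 167 CPM in cardiomyocytes, against 1.32 and 1.82 CPM in fibroblasts (6.90 ± 0.32) and Myl4 had 297, 406 and 283 CPM in cardiomyocytes, against 5.06 and 4.64 CPM in fibroblasts (6.08 ± 0.25). Of 16 skeletal muscle genes tested, 8 were higher, 3 lower and 5 not called, a share called of 68.8%, near the 66.1% of all genes. The myogenic regulators Myod1, Myog, Myf5 and Myf6 had too few counts to be tested. The lower genes were Myh2, a fast skeletal myosin, with 1.88, 3.37 and 1.40 CPM in cardiomyocytes, against 127 and 96.3 CPM in fibroblasts (-5.69 ± 0.29), Myh8, a perinatal myosin (-3.75 ± 0.60, or -5.33 without cardiomyocyte replicate 2 and -3.12 without replicate 3), and Tnnt3, fast skeletal troponin T (-1.32 ± 0.35, a call lost without fibroblast replicate 2 at -1.04, adjusted p = 0.0683). Ckm, muscle creatine kinase, had 304, 289.7 and 281 CPM in cardiomyocytes, against 0.152 and 0.156 CPM in fibroblasts (10.83 ± 0.28). Casq1, the skeletal calsequestrin, had 179, 388 and 189 CPM in cardiomyocytes, against 1.26 and 1.72 CPM in fibroblasts (7.39 ± 0.52), with replicate 2 highest.

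Energy genes were higher over a broad front. All 13 mitochondrially encoded messenger genes were called higher, with a median log2 difference of 1.12, a size that the mitochondrial share of counts given above also shows. Of 24 genes of fatty acid uptake, storage and oxidation, 21 were higher. Cd36, a fatty acid transporter, had 50.5, 61.4 and 58.2 CPM in cardiomyocytes, against 0.354 and 0.260 CPM in fibroblasts (7.49 ± 0.17). Cpt1b, the muscle gatekeeper of mitochondrial import, had 146, 107 and 145 CPM in cardiomyocytes, against 3.90 and 5.001 CPM in fibroblasts (4.90 ± 0.24). The enzymes of the oxidation spiral differed less, for instance Hadha at 1.17 ± 0.077 and Acadvl at 1.55 ± 0.085. Lpl, lipoprotein lipase, was lower, with 142, 154 and 145 CPM in cardiomyocytes, against 249.6 and 179 CPM in fibroblasts (-0.55 ± 0.11). Glucose genes were higher in 19 of 25: Slc2a4, the insulin-responsive glucose transporter, had 88.7, 71.98 and 76.9 CPM in cardiomyocytes, against 1.42 and 1.41 CPM in fibroblasts (5.80 ± 0.16), Pygm, the muscle glycogen phosphorylase, stood at 9.08 ± 0.17, and the monocarboxylate carrier Slc16a3 had 99.8, 167 and 80.4 CPM in cardiomyocytes, against 2.12 and 2.03 CPM in fibroblasts (5.79 ± 0.45). Pfkfb3, an activator of glycolysis in dividing cells, was lower, with 26.3, 24.5 and 26.7 CPM in cardiomyocytes, against 50.1 and 53.8 CPM in fibroblasts (-1.01 ± 0.071). The nuclear regulators of oxidative metabolism Esrrg, Perm1, Ppargc1b and Esrra stood at 7.66 ± 0.18, 6.75 ± 0.28, 4.35 ± 0.17 and 1.81 ± 0.15. Mb, myoglobin, had 194, 228 and 213 CPM in cardiomyocytes, against 0.152 and 0.104 CPM in fibroblasts (10.62 ± 0.26). In branched-chain amino acid catabolism, Bcat1, the cytosolic transaminase, was lower (-1.47 ± 0.092), while Oxct1, which lets cells burn ketone bodies, was higher (1.72 ± 0.10).

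Protein turnover genes went in opposite directions by machine. Of 19 muscle ubiquitin ligase and atrophy genes, 18 were higher and 1 was not called. Fbxo32 (atrogin-1) had 78.8, 34.1 and 92.9 CPM in cardiomyocytes, against 5.82 and 6.15 CPM in fibroblasts (3.52 ± 0.43), with replicate 2 lowest among cardiomyocytes. Trim55 and Klhl41 stood at 8.78 ± 0.15 and 7.58 ± 0.32, and Trim63 (MuRF1) had 121, 89.8 and 128 CPM in cardiomyocytes, against 0.607 and 1.67 CPM in fibroblasts (6.64 ± 0.30, or 7.52 without fibroblast replicate 2). Of 28 proteasome genes, 17 were higher and none lower, but 20 had a 95% interval within 1.5-fold either way, as did 33.9% of all genes; the activator subunit Psme1 differed most, with 20.2, 16.96 and 17.7 CPM in cardiomyocytes, against 6.53 and 6.04 CPM in fibroblasts (1.54 ± 0.14). Of 30 cytosolic ribosomal protein genes, 29 were lower, with a median log2 difference of -0.45 and none by as much as 2-fold. Rplp0 had 1938, 1883 and 1944 CPM in cardiomyocytes, against 2806 and 2842 CPM in fibroblasts (-0.56 ± 0.082), Rps12 had 328, 346 and 358 CPM in cardiomyocytes, against 606 and 613 CPM in fibroblasts (-0.82 ± 0.072), and the groups did not overlap for either. The lysosome and autophagy list divided evenly, 8 higher and 8 lower of 19 (5 higher without fibroblast replicate 1), with the protease Ctsb higher (1.15 ± 0.088) and the membrane proteins Lamp1 (-0.64 ± 0.078) and Lamp2 (-0.78 ± 0.073) lower. Pink1 and Bnip3, which direct mitochondria to autophagy, were higher (1.81 ± 0.16 and 1.61 ± 0.25).

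The extracellular matrix was lower in cardiomyocytes in nearly every list. Among cardiomyocytes the summed level of each matrix list was highest in replicate 2, although Dcn, Lum and Mmp2 were lowest there. The summed level of 24 collagen genes was 11200, 20200 and 11800 CPM in cardiomyocytes and 60700 and 69600 CPM in fibroblasts. Of those 24 genes, 17 were lower, 2 higher (Col18a1 and Col2a1) and 5 not called, and without cardiomyocyte replicate 2 the counts were 19 lower and 1 higher. Col3a1, a fibrillar collagen, had 1406, 3167 and 1703 CPM in cardiomyocytes, against 9256 and 11340.0 CPM in fibroblasts (-2.30 ± 0.42). Col14a1, a collagen on fibril surfaces, had 178, 306 and 195 CPM in cardiomyocytes, against 2448 and 2386 CPM in fibroblasts (-3.42 ± 0.27). Col8a2, a short-chain collagen, had 6.51, 14.02 and 6.89 CPM in cardiomyocytes, against 134 and 122 CPM in fibroblasts (-3.83 ± 0.48). In each of these the groups did not overlap. Fn1, fibronectin, which cells grip through integrins, had 3272, 3967 and 3695 CPM in cardiomyocytes, against 16339.9 and 17361 CPM in fibroblasts (-2.21 ± 0.11). Col18a1, a basement membrane collagen, ran the other way, with 165, 216 and 179.9 CPM in cardiomyocytes, against 111 and 126 CPM in fibroblasts (0.65 ± 0.11). Col2a1, the cartilage collagen, had 0.434, 0.535 and 0.510 CPM in cardiomyocytes and 3 counts in fibroblasts, a ratio of 6.40-fold (exact 95% counting interval 1.995 to 32.7). Its call was lost without fibroblast replicate 1 (2.18, adjusted p = 0.124) or fibroblast replicate 2 (3.13, adjusted p = 0.0644), by limma-voom (adjusted p = 0.0572) and with the replicate block (adjusted p = 0.059). Col6a3 was not called, with 39.1, 173 and 46.9 CPM in cardiomyocytes, against 84.2 and 199.8 CPM in fibroblasts, cardiomyocyte replicate 2 lying between the fibroblast libraries. Without that library it was called (-1.72, adjusted p = 0.0332). The part of the fibroblast marker level in these matrix differences was not tested.

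Enzymes that hydroxylate, fold and crosslink collagen were lower in 20 of 24 and higher in 3. Lox, lysyl oxidase, had 142, 234 and 148 CPM in cardiomyocytes, against 1463 and 1246 CPM in fibroblasts (-2.96 ± 0.24). Plod2, which prepares collagen for stable crosslinks, had 173, 218 and 190.4 CPM in cardiomyocytes, against 1339 and 1109.8 CPM in fibroblasts (-2.66 ± 0.14). Serpinh1, the collagen chaperone, had 1231, 1477 and 1229.5 CPM in cardiomyocytes, against 3728 and 3652 CPM in fibroblasts (-1.49 ± 0.10). The 3 higher enzymes were Tgm2, tissue transglutaminase, with 571, 699.7 and 609 CPM in cardiomyocytes, against 106 and 167 CPM in fibroblasts (2.20 ± 0.22), P3h2 (1.95 ± 0.13) and Loxl4 (1.0 ± 0.19). Of 17 elastic fibre genes, 15 were lower and none higher. Fbn1, the microfibril backbone, had 341, 672 and 391 CPM in cardiomyocytes, against 3322 and 4179.9 CPM in fibroblasts (-3.003 ± 0.32). Fbln5, which helps elastin assemble, had 18.9, 31.7 and 19.7 CPM in cardiomyocytes, against 586 and 617 CPM in fibroblasts (-4.69 ± 0.26). Ltbp4, which binds both microfibrils and latent TGF-beta, stood at -3.55 ± 0.41. Fbn2, fibrillin 2, was not called, with 9.21, 19.6 and 9.65 CPM in cardiomyocytes, against 12.3 and 13.1 CPM in fibroblasts (log2 0.00 ± 0.37).

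Proteoglycan genes were lower in 13 of 24 and higher in 8 (4 higher without fibroblast replicate 1). Bgn, biglycan, had 1579.7, 2289.5 and 1818 CPM in cardiomyocytes, against 8787 and 10100.1 CPM in fibroblasts (-2.32 ± 0.22). Cemip, which breaks down hyaluronan, had 117, 158 and 116 CPM in cardiomyocytes, against 2274 and 2207 CPM in fibroblasts (-4.11 ± 0.21). The glypicans split: Gpc4 had 88.1, 127 and 85.7 CPM in cardiomyocytes, against 1060.3 and 983 CPM in fibroblasts (-3.35 ± 0.17) and Gpc6 stood at -3.47 ± 0.28. Gpc1 had 682, 546 and 688 CPM in cardiomyocytes, against 82.5 and 93.9 CPM in fibroblasts (2.86 ± 0.12). Dcn had 242, 109 and 328 CPM in cardiomyocytes, against 133 and 169 CPM in fibroblasts, and cardiomyocyte replicate 2 lay below both fibroblast libraries while replicates 1 and 3 lay above them. It was not called over all libraries (0.59 ± 0.40) but was without cardiomyocyte replicate 2 (0.92, adjusted p = 0.00753). In the basement membrane list, 12 of 20 genes were lower and 6 higher. Nid1, nidogen, had 308, 536 and 337 CPM in cardiomyocytes, against 3873 and 4118 CPM in fibroblasts (-3.34 ± 0.26). The laminin chain Lamb3, known from epithelia, went the opposite way, with 93.1, 164 and 89.5 CPM in cardiomyocytes, against 0.759 and 0.521 CPM in fibroblasts (7.48 ± 0.45), while Lamb1 (-1.06 ± 0.12) and Lamc1 (-0.69 ± 0.11) were lower and Lama4 was not called (-0.17 ± 0.15).

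Proteases and their inhibitors were lower in 16 of 28 and higher in 7. Mmp2, a gelatinase, had 421, 389 and 535 CPM in cardiomyocytes, against 866 and 1078 CPM in fibroblasts (-1.12 ± 0.20). Mmp14, which activates it, stood at -1.57 ± 0.13. Serpine2, an inhibitor of thrombin and plasminogen activators, had 14.7, 18.2 and 19.1 CPM in cardiomyocytes, against 129 and 241 CPM in fibroblasts (-3.41 ± 0.26). Higher in cardiomyocytes were Mmp15, a membrane-type protease (3.47 ± 0.14), Mmp12, an elastase known from macrophages, with 61.9, 73.7 and 82.02 CPM in cardiomyocytes, against 6.17 and 9.38 CPM in fibroblasts (3.22 ± 0.27), and Plau, urokinase (3.24 ± 0.27). Timp1, an inhibitor, was not called, with 37.96, 45.4 and 46.7 CPM in cardiomyocytes, against 48.7 and 46.3 CPM in fibroblasts (-0.13 ± 0.099). Matricellular genes, which signal rather than bear load, were lower in 16 of 21. Wisp2 had 42.7, 80.9 and 47.1 CPM in cardiomyocytes, against 1530.1 and 1627 CPM in fibroblasts (-4.80 ± 0.34), Nov, a relative of Ctgf, had 71.1, 72.9 and 62.97 CPM in cardiomyocytes, against 1052 and 1009 CPM in fibroblasts (-3.90 ± 0.11), and Cthrc1 stood at -4.10 ± 0.35. Spp1, osteopontin, and Wisp1 were higher, Spp1 with 176, 199.8 and 228 CPM in cardiomyocytes, against 12.8 and 17.5 CPM in fibroblasts (3.73 ± 0.18) and Wisp1 with 70.4, 61.7 and 78.96 CPM in cardiomyocytes, against 17.7 and 21.3 CPM in fibroblasts (1.86 ± 0.11).

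Signals and receptors were read as pairs, each gene by its own call. Of 44 ligand and receptor pairs with both genes tested, 36 had both called. In cardiomyocytes, 10 had the ligand higher and the receptor lower, 7 the ligand lower and the receptor higher, 7 both higher and 12 both lower. Among all genes 66.1% were called, 34.5% higher and 31.7% lower, and the pairs were chosen with earlier results of these data known. The signals neuregulin and endothelin were lower in cardiomyocytes, and their receptors Erbb4 and Ednra were higher. Nrg1 had 9.84, 12.5 and 9.82 CPM in cardiomyocytes, against 155 and 132 CPM in fibroblasts (-3.75 ± 0.18). Its receptor Erbb4 had 8.05, 7.44 and 9.10 CPM in cardiomyocytes, against 0.405 and 0.417 CPM in fibroblasts (4.30 ± 0.27). Edn1, endothelin 1, had 10.03, 16.2 and 9.99 CPM in cardiomyocytes, against 228 and 175 CPM in fibroblasts (-4.07 ± 0.22). Its receptor Ednra had 81.9, 81.1 and 87.4 CPM in cardiomyocytes, against 3.49 and 5.26 CPM in fibroblasts (4.25 ± 0.15). Erbb2, the partner of Erbb4, stood at 0.68 ± 0.096, and the other endothelin receptor, Ednrb, was not called, with 3.57, 3.80 and 3.74 CPM in cardiomyocytes, against 2.98 and 2.71 CPM in fibroblasts (0.38 ± 0.20). Bmp4 (-3.03 ± 0.21) and its receptor Bmpr1a (1.07 ± 0.089), and Csf1 (-0.50 ± 0.061), the growth factor of macrophages, with Csf1r (2.89 ± 0.32, or 3.59 without fibroblast replicate 2), lay the same way. Csf1r is also a leukocyte marker.

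In the opposite arrangement Nppa was on the cardiomyocyte side, and its receptors Npr1, with 8.39, 11.3 and 9.14 CPM in cardiomyocytes, against 31.9 and 31.7 CPM in fibroblasts (-1.73 ± 0.12), and Npr3 (-1.67 ± 0.10) were on the fibroblast side. Bmp10, a heart-specific ligand, had 17.2, 20.4 and 15.01 CPM in cardiomyocytes and 1 count in fibroblasts, a ratio of 675-fold (exact 95% counting interval 121 to 26701). Its fitted log2 difference was 9.10, and 8.23 without fibroblast replicate 1 or 11.43 without fibroblast replicate 2. The Bmp10 receptor Acvrl1 had 16.5, 24.2 and 14.9 CPM in cardiomyocytes, against 78.2 and 90.6 CPM in fibroblasts (-2.19 ± 0.19). Pdgfc (1.76 ± 0.13) paired with Pdgfra (-1.14 ± 0.21), and Fgf9, with 3.91, 4.55 and 3.997 CPM in cardiomyocytes, against 1.92 and 3.23 CPM in fibroblasts (0.69 ± 0.22, a call lost without fibroblast replicate 1 at 0.36, adjusted p = 0.203), paired with Fgfr3, with 8.49, 13.5 and 9.57 CPM in cardiomyocytes, against 146 and 159.6 CPM in fibroblasts (-3.87 ± 0.22). Both members were higher in cardiomyocytes for Wnt5a (0.79 ± 0.10) with Ror2 (1.98 ± 0.15) and for Cxcl12 (0.84 ± 0.20) with Cxcr4 (1.92 ± 0.24), and both lower for Pdgfd (-3.10 ± 0.11) with Pdgfrb (-1.60 ± 0.21), Angpt1 (-2.90 ± 0.14) with Tek (-0.80 ± 0.16) and Gas6 (-0.62 ± 0.11) with Axl (-1.35 ± 0.12). Jag1, a Notch ligand, had 19.7, 29.1 and 17.8 CPM in cardiomyocytes, against 612 and 551 CPM in fibroblasts (-4.72 ± 0.21), and Notch1 was not called (-0.38 ± 0.20) except without fibroblast replicate 1 (-0.72, adjusted p = 0.00371).

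**Figure D4:**
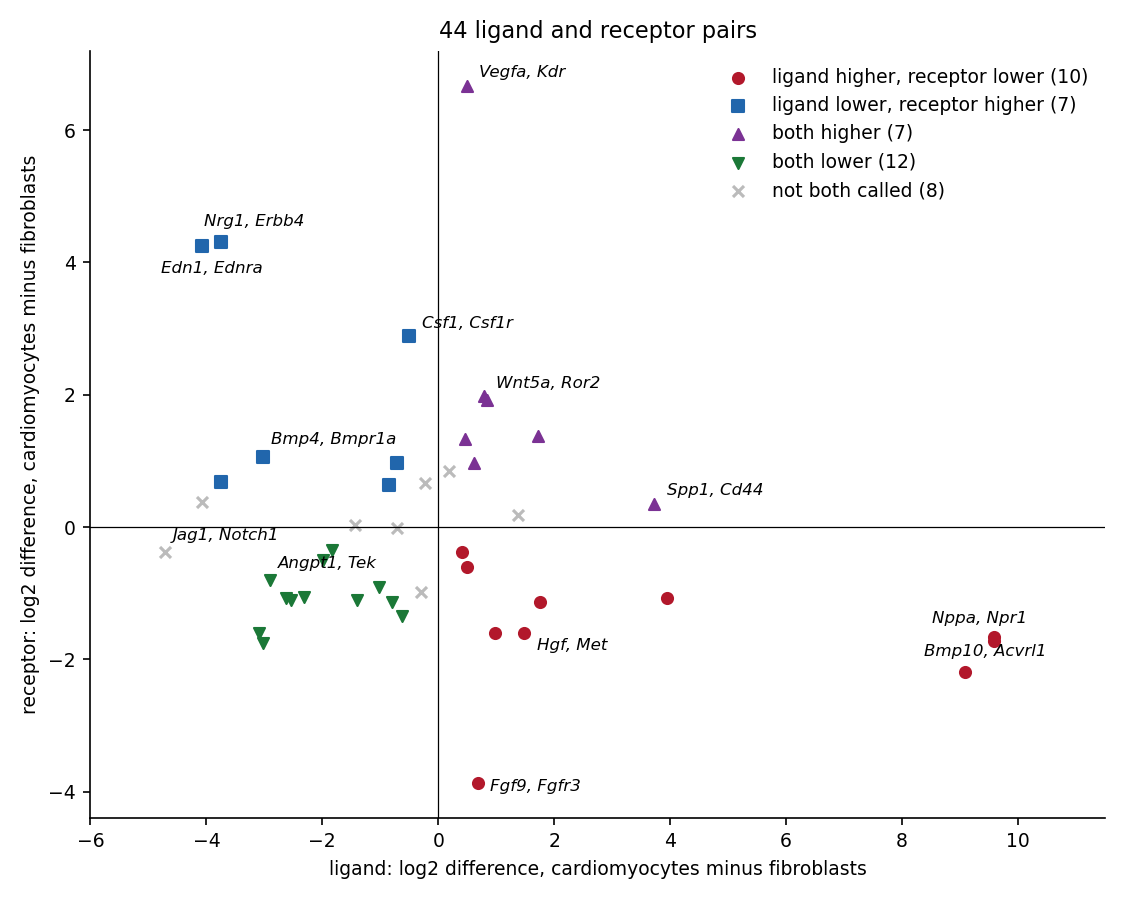
Log2 difference, cardiomyocytes minus fibroblasts, of the ligand (horizontal axis) and of its receptor (vertical axis) for 44 pairs; symbols give the combination of calls, with the number of pairs in brackets. Nrg1 with Erbb4 and Edn1 with Ednra lie at the upper left, Nppa and Bmp10 with their receptors at the lower right, and most both-lower pairs lie at the lower left.

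Beyond the pairs, signalling families divided gene by gene. In the TGF-beta superfamily 13 of 33 genes were higher and 17 lower. Tgfb3 had 183, 248 and 158 CPM in cardiomyocytes, against 2199 and 1775 CPM in fibroblasts (-3.34 ± 0.17). Tgfb2 had 372, 433 and 370.3 CPM in cardiomyocytes, against 319 and 268 CPM in fibroblasts (0.42 ± 0.094). Gdf6 had 18.2, 27.1 and 17.1 CPM in cardiomyocytes, against 274 and 328 CPM in fibroblasts (-3.86 ± 0.29). Bmp7 had 42.8, 48.97 and 43.03 CPM in cardiomyocytes and 1 count in fibroblasts, a ratio of 1742-fold (exact 95% counting interval 312 to 68830.2). Its fitted log2 difference was 10.45, and 9.59 without fibroblast replicate 1 or 12.79 without fibroblast replicate 2. In the FGF list, with 7 of 16 genes higher and 7 lower, Fgf1 had 182, 178 and 199.7 CPM in cardiomyocytes, against 15.3 and 13.7 CPM in fibroblasts (3.68 ± 0.11) and Fgf2 had 0.820, 1.02 and 0.765 CPM in cardiomyocytes, against 4.70 and 3.85 CPM in fibroblasts (-2.31 ± 0.23). Sfrp1, a secreted Wnt inhibitor, had 248, 273 and 261 CPM in cardiomyocytes, against 11.1 and 15.2 CPM in fibroblasts (4.31 ± 0.13), and the Wnt receptor Fzd4 had 54.1, 80.5 and 56.5 CPM in cardiomyocytes, against 418 and 374 CPM in fibroblasts (-2.64 ± 0.16). Vegfc, a lymphatic growth factor, had 9.84, 15.8 and 11.3 CPM in cardiomyocytes, against 271 and 237 CPM in fibroblasts (-4.38 ± 0.17). Its receptor Flt4 had 61.1, 74.6 and 77.9 CPM in cardiomyocytes, against 0.961 and 0.990 CPM in fibroblasts (6.18 ± 0.18). Among guidance cues Sema5a was higher (4.09 ± 0.20) and Slit3 lower (-2.54 ± 0.15). Ptgfr, the prostaglandin F receptor, and S1pr1, a sphingosine 1-phosphate receptor, stood at 6.68 ± 0.13 and 6.003 ± 0.14. Agtr1a, the angiotensin receptor, had 5.02, 3.91 and 6.68 CPM in cardiomyocytes, against 48.5 and 50.5 CPM in fibroblasts (-3.23 ± 0.22). Bdkrb2, the bradykinin receptor, had 36.9, 36.6 and 41.7 CPM in cardiomyocytes, against 1.06 and 1.61 CPM in fibroblasts (4.84 ± 0.18). Stc1, stanniocalcin, had 120.2, 116 and 92.1 CPM in cardiomyocytes, against 4.10 and 4.48 CPM in fibroblasts (4.67 ± 0.13), and Pappa, a protease that frees IGF, was lower (-2.83 ± 0.19). In cyclic nucleotide signalling the kinase inhibitor Pkia (3.82 ± 0.11), the anchor Akap6 (3.49 ± 0.095) and the cyclase Adcy5 (1.63 ± 0.089) were higher, and Adcy2 (-3.23 ± 0.17) and Pde10a (-2.45 ± 0.20) lower.

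Transcription factors of the lineages divided within families. Of the 23 cardiac homeobox and bHLH factors tested, 13 were higher and 9 lower. Prox1 had 38.004, 29.97 and 38.4 CPM in cardiomyocytes, against 0.556 and 0.573 CPM in fibroblasts (5.96 ± 0.22). Irx4, a ventricular factor, had 59.7, 46.7 and 60.8 CPM in cardiomyocytes and 2 counts in fibroblasts, a ratio of 1095-fold (exact 95% counting interval 303 to 9049). Its fitted log2 difference was 9.92, and 8.98 without fibroblast replicate 1 or 13.11 without fibroblast replicate 2. Gata5 had 25.9, 25.6 and 23.7 CPM in cardiomyocytes, against 0.202 and 0.104 CPM in fibroblasts (7.29 ± 0.30). Gata6 was not called, with 61.8, 57.5 and 64.5 CPM in cardiomyocytes, against 65.9 and 70.8 CPM in fibroblasts (-0.16 ± 0.076). Gata3 had 0.965, 1.87 and 1.23 CPM in cardiomyocytes, against 5.82 and 8.28 CPM in fibroblasts (-2.39 ± 0.27). Myocd, myocardin, the muscle coactivator of SRF, had 116, 137 and 122 CPM in cardiomyocytes, against 2.83 and 2.34 CPM in fibroblasts (5.59 ± 0.14), whereas Srf itself had 168, 228 and 171 CPM in cardiomyocytes, against 135 and 133 CPM in fibroblasts (0.50 ± 0.12) and the general coactivator Mkl1 was lower (-0.38 ± 0.093). Of 8 TEAD factors and coactivators, 6 were lower and 1 higher; Vgll3 had 32.9, 38.7 and 32.2 CPM in cardiomyocytes, against 269 and 237 CPM in fibroblasts (-2.87 ± 0.12), Tead3 and Tead4 stood at -0.92 ± 0.072 and -1.02 ± 0.15, and Tead2 was the higher one (0.40 ± 0.080). Of 25 Klf, Sox, Fox and Zeb factors, 16 were lower, 1 higher and 8 not called. The share called was 68%, near the 66.1% of all genes, of which 31.7% were lower. Sox9, known from cartilage and matrix-forming cells, had 10.8, 17.9 and 11.9 CPM in cardiomyocytes, against 108 and 111 CPM in fibroblasts (-3.02 ± 0.16). Klf4 had 66.1, 67.6 and 56.3 CPM in cardiomyocytes, against 221 and 196 CPM in fibroblasts (-1.72 ± 0.096). Ets1 had 63.5, 91.1 and 70.3 CPM in cardiomyocytes, against 296 and 302 CPM in fibroblasts (-1.998 ± 0.16) and Ets2 had 53.1, 38.96 and 57.8 CPM in cardiomyocytes, against 20.2 and 17.3 CPM in fibroblasts (1.41 ± 0.15), opposite directions within a family. Nfix was lower (-1.73 ± 0.16) and Tbx20 higher (1.36 ± 0.12). Nearly all Hox genes had too few counts to be tested, 2 of 28 being testable.

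Of 22 splicing regulators tested, 10 were higher and 6 lower, a share called of 72.7%, near the 66.1% of all genes. Rbm20, which controls titin splicing, had 325, 312 and 352 CPM in cardiomyocytes, against 1.97 and 3.18 CPM in fibroblasts (7.0 ± 0.15). Rbm24 had 94.2, 88.4 and 91.4 CPM in cardiomyocytes, against 8.90 and 7.45 CPM in fibroblasts (3.48 ± 0.088). Rbm38 (4.53 ± 0.16) and Khdrbs3 (3.96 ± 0.23) were higher. Ptbp1, a repressor of muscle exons, had 224, 249 and 215 CPM in cardiomyocytes, against 482 and 462 CPM in fibroblasts (-1.04 ± 0.085), and Mbnl3 was lower (-1.45 ± 0.19). Reads on 3 miRNA loci were sufficient for a test. They come from total RNA libraries and do not measure mature miRNAs. The mature sequences of 2 of these loci, from RefSeq (GRCr8), are shown because reads on both were lower in cardiomyocytes; capitals mark the seed, bases 2 to 8, which differs among all 3.
miR-199a-5p (chr13:77116255-77116277, plus strand): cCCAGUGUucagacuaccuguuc
miR-199a-3p (chr13:77116294-77116315, plus strand): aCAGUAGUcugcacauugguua
miR-3120 (chr13:77121672-77121692, minus strand): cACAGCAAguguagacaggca
Mir199a2 had 0.772, 0.696 and 0.808 CPM in cardiomyocytes, against 2.07 and 3.33 CPM in fibroblasts (-1.82 ± 0.35). Mir3120 had 0.145, 0.214 and 0.128 CPM in cardiomyocytes, against 0.556 and 0.886 CPM in fibroblasts (-2.13 ± 0.54). Mir22 was not called, with 0.916, 0.856 and 0.595 CPM in cardiomyocytes, against 0.506 and 0.625 CPM in fibroblasts (0.46 ± 0.35). Mir199a2 and Mir3120 lie near each other in the genome, so their reads may not be independent.

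Few proliferation genes were called, and 1 library shifted their number. Of 24 cell cycle genes, 1 was higher, 1 lower and 22 not called, a share called of 8.33% against 66.1% of all genes. The higher gene was Aurka, a mitotic kinase (0.53 ± 0.18), a call lost without cardiomyocyte replicate 2 (0.38, adjusted p = 0.0731) or fibroblast replicate 2 (0.41, adjusted p = 0.179), and with no filter on low counts (adjusted p = 0.0552). The lower gene was Ccne2, a cyclin of S phase entry (-0.42 ± 0.12), a call lost without fibroblast replicate 1 (-0.31, adjusted p = 0.114). Mki67, a marker of cycling cells, had 93.2, 148 and 92.5 CPM in cardiomyocytes, against 119.8 and 111 CPM in fibroblasts (-0.06 ± 0.20). Top2a, which untangles DNA before mitosis, had 107, 181 and 99.1 CPM in cardiomyocytes, against 124 and 107 CPM in fibroblasts (0.15 ± 0.25). The highest values were those of cardiomyocyte replicate 2 in the first and the second alike, and without it 8 of the 24 genes were called lower in cardiomyocytes, Mki67 among them (-0.32, adjusted p = 0.0139). Cell cycle inhibitors and senescence genes were lower in 10 of 20, higher in 3 and not called in 7, a share called of 65%, near that of all genes. The higher genes were Gadd45a (2.37 ± 0.15), Gadd45g (0.38 ± 0.13, a call lost without fibroblast replicate 2 at 0.30, adjusted p = 0.162, and with the 5 serum-free libraries alone at 0.38, adjusted p = 0.0549) and Ccnd2 (0.72 ± 0.055). Cdkn2a had 2.07, 3.16 and 2.04 CPM in cardiomyocytes, against 6.12 and 7.87 CPM in fibroblasts (-1.54 ± 0.21), while Cdkn1a and Cdkn1b were not called (-0.21 ± 0.22 and -0.13 ± 0.079). Gadd45a had 106, 84.98 and 102 CPM in cardiomyocytes, against 20.99 and 16.7 CPM in fibroblasts (2.37 ± 0.15) and Gadd45b had 23.9, 22.3 and 19.2 CPM in cardiomyocytes, against 83.8 and 80.7 CPM in fibroblasts (-1.92 ± 0.086), again in opposite directions.

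Inflammatory genes were mostly higher in cardiomyocytes, and cardiomyocyte replicate 2 departed from its mates in several of them. Of 26 chemokines and cytokines, 18 were higher and 7 lower. Ccl2, which attracts monocytes, had 338, 115 and 334 CPM in cardiomyocytes, against 13.7 and 14.6 CPM in fibroblasts (4.21 ± 0.62). Ccl7, its neighbour in function, had 86.4, 25.6 and 82.5 CPM in cardiomyocytes, against 1.32 and 1.56 CPM in fibroblasts (5.49 ± 0.87). Cxcl10, which is induced by interferon, had 144, 81.1 and 109.9 CPM in cardiomyocytes, against 1.21 and 0.990 CPM in fibroblasts (6.65 ± 0.56). The groups did not overlap, but replicate 2 had the lowest cardiomyocyte value of each. Lcn2, lipocalin 2, was far lower in replicate 2, with 91.8, 11.02 and 117 CPM in cardiomyocytes, against 0.860 and 0.573 CPM in fibroblasts (6.67 ± 1.6), and its call was lost without fibroblast replicate 1 (6.99, adjusted p = 0.0608) or fibroblast replicate 2 (6.41, adjusted p = 0.0641), and by limma-voom (6.13, adjusted p = 0.139). Higher in fibroblasts were Tnfsf18, a ligand of the tumour necrosis factor family, with 9.89, 17.5 and 9.69 CPM in cardiomyocytes, against 269.7 and 154 CPM in fibroblasts (-4.11 ± 0.40), and Il15, with 1.69, 1.55 and 1.02 CPM in cardiomyocytes, against 10.2 and 13.8 CPM in fibroblasts (-3.08 ± 0.29). In the complement list 11 of 19 genes were higher, 1 lower and 7 not called, a share called of 63.2%, near the 66.1% of all genes. Among the higher genes was Cd59, which shields cells from complement, with 172, 168 and 181 CPM in cardiomyocytes, against 15.6 and 18.4 CPM in fibroblasts (3.35 ± 0.092).

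Markers of other cells were measured beside these groups. All 13 leukocyte markers tested were higher in cardiomyocytes, with summed levels of 214, 243 and 244 CPM in cardiomyocytes and 23.7 and 39.7 CPM in fibroblasts; Itgam, an integrin of macrophages, had 12.8, 14.1 and 13.9 CPM in cardiomyocytes, against 0.708 and 1.41 CPM in fibroblasts (3.68 ± 0.22), and T cell and B cell markers (Cd3e, Cd79b) had too few counts to be tested. Of 12 endothelial markers, 8 were higher and 4 lower, with summed levels of 256, 337 and 251 CPM in cardiomyocytes and 529 and 614 CPM in fibroblasts; Kdr, a receptor for VEGF, had 13.02, 12.4 and 15.6 CPM in cardiomyocytes, against 0.101 and 0.156 CPM in fibroblasts (6.67 ± 0.31). Eng, which fibroblasts also make, had 154, 222 and 158 CPM in cardiomyocytes, against 461 and 545 CPM in fibroblasts (-1.50 ± 0.18). Of 12 epicardial and mesothelial markers, 8 were higher and 3 lower, with summed levels of 241, 248 and 233 CPM in cardiomyocytes and 212 and 256 CPM in fibroblasts; Msln, mesothelin, had 56.2, 64.6 and 52.1 CPM in cardiomyocytes, against 1.42 and 0.990 CPM in fibroblasts (5.57 ± 0.26). Lrrn4 had 24.5, 18.7 and 23.7 CPM in cardiomyocytes, against 0.405 and 0.156 CPM in fibroblasts (6.28 ± 0.26, or 7.10 without fibroblast replicate 1). Of 13 smooth muscle and pericyte markers, 5 were higher, 7 lower and 1 not called. Their summed levels were 4570, 6710 and 4410 CPM in cardiomyocytes and 11200 and 10800 CPM in fibroblasts. Most of the fibroblast sum came from Acta2 and Tagln, which myofibroblasts also express. Acta2 had 1594, 2652 and 1438 CPM in cardiomyocytes, against 6158 and 5809 CPM in fibroblasts (-1.66 ± 0.22). Tagln had 522, 1058 and 524 CPM in cardiomyocytes, against 3499.7 and 3305 CPM in fibroblasts (-2.28 ± 0.29). The cardiomyocyte sum includes Des, desmin, counted above as a muscle isoform, with a mean of 1665 CPM in cardiomyocytes and 6.96 CPM in fibroblasts. Of 4 erythroid markers tested, 2 were higher and 2 not called, a share called of 50% against 66.1% of all genes. Alas2 and Hba-a1 had too few counts to be tested. Hbb, beta globin, had 9.89, 8.35 and 12.6 CPM in cardiomyocytes and no count in fibroblasts, at least 136-fold higher. Leukocyte markers were thus higher in the cardiomyocyte libraries, as were Mmp12, Spp1 and Csf1r, and their part in those differences was not tested. The summed chemokine and cytokine level was 1250, 806 and 1190 CPM in cardiomyocytes and 875 and 786 CPM in fibroblasts. Cardiomyocyte replicate 2 thus lay between the fibroblast libraries, and the part of leukocytes in this sum was not tested. The summed endothelial level was lower in cardiomyocytes although 8 of its 12 members, Kdr among them, were higher. The summed mesothelial level overlapped between the groups although 8 of its 12 members, Krt8 (4.98 ± 0.26) among them, were higher.

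Genes alike in both cell types were counted by interval and not by a missed test. For 4696 of 13869 genes (33.9%), the 95% interval of the difference lay within 1.5-fold either way; 2927 of them were not called and 1769 were. Hnrnpf, an RNA-binding protein, had 424, 425 and 419 CPM in cardiomyocytes, against 431 and 414 CPM in fibroblasts (log2 difference 0.00 ± 0.057). Eif5a, a translation factor, had 657, 629 and 622 CPM in cardiomyocytes, against 659 and 613 CPM in fibroblasts (0.00 ± 0.065). Cnot1, the scaffold of the main mRNA deadenylase, and Ipo7, an import receptor of the nucleus, stood at -0.01 ± 0.061 and -0.01 ± 0.067. Tubb5, the common beta-tubulin, had 1313, 1675 and 1316 CPM in cardiomyocytes, against 1469.6 and 1398 CPM in fibroblasts (0.00 ± 0.10), with replicate 2 highest. Tuba4a, an alpha-tubulin of muscle and platelets, had 266, 260.5 and 278 CPM in cardiomyocytes, against 10.1 and 6.30 CPM in fibroblasts (5.03 ± 0.16) and Tubb2a had 13.2, 17.8 and 14.7 CPM in cardiomyocytes, against 59.3 and 58.6 CPM in fibroblasts (-1.96 ± 0.17).

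**Figure D5:**
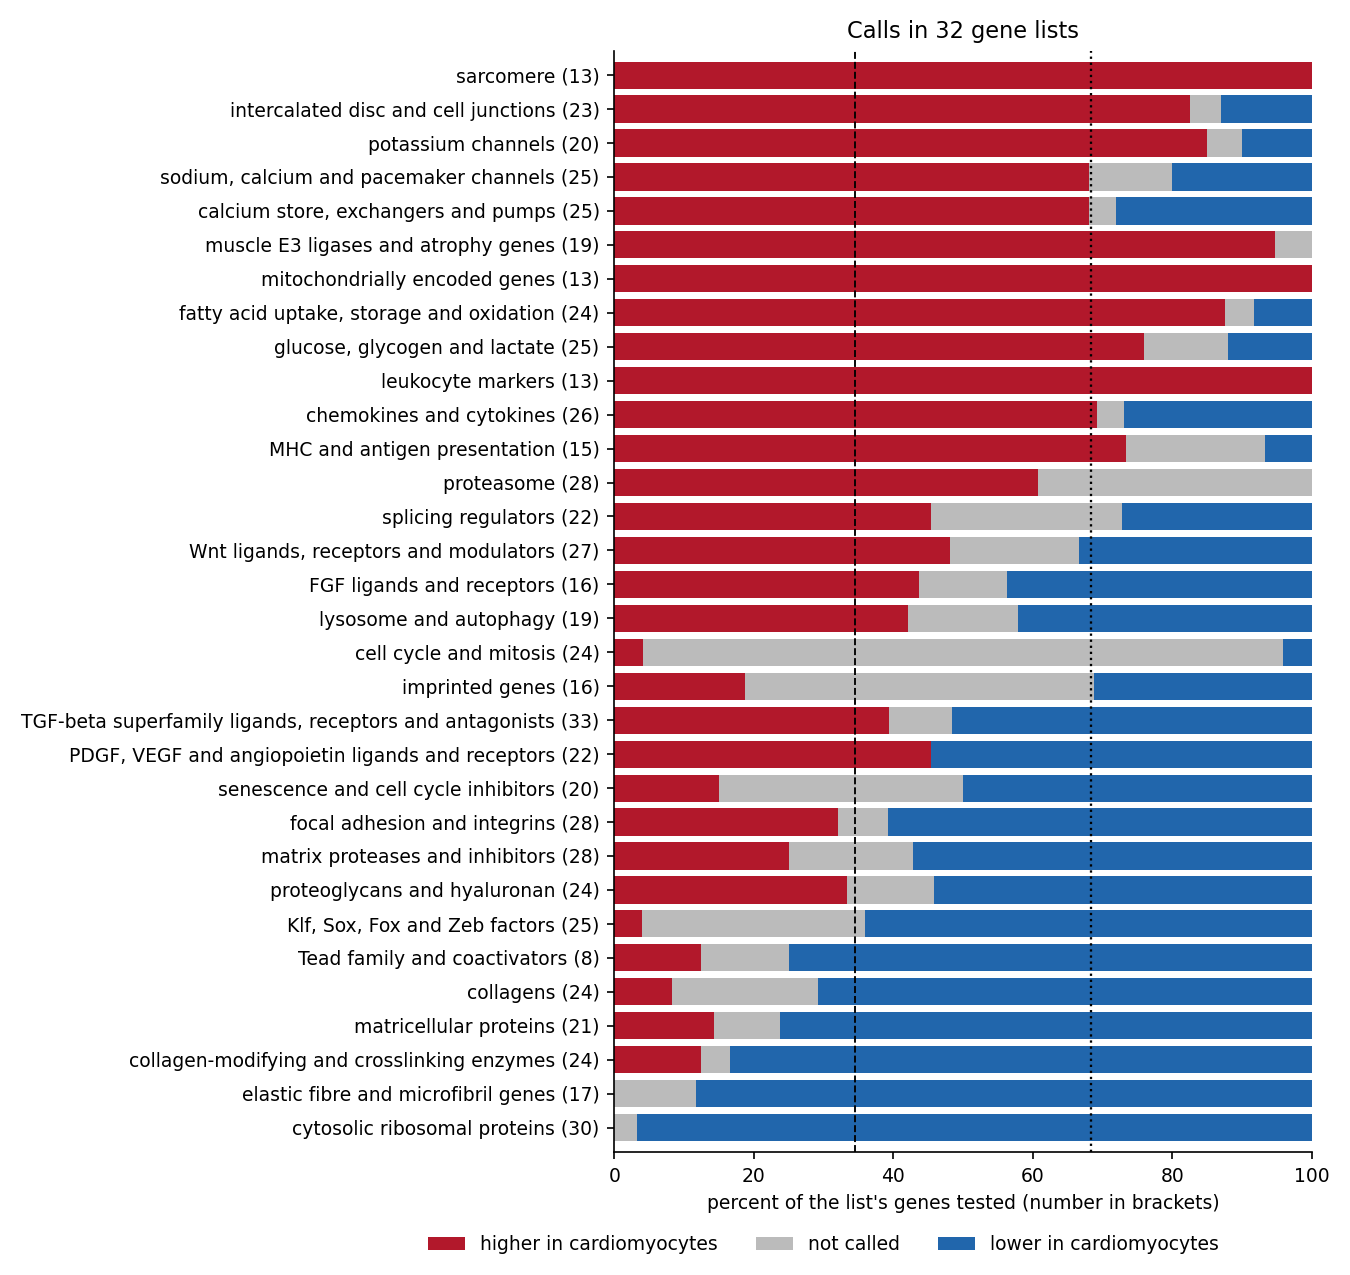
Share of the tested genes of 32 lists that were called higher in cardiomyocytes (left), not called (middle) or called lower (right), with the number tested in brackets. Among all 13869 genes 34.5% were higher (dashed line) and 31.7% lower (from the dotted line to the right edge); sarcomere and leukocyte genes are all higher, elastic fibre genes and ribosomal proteins almost all lower, and cell cycle genes almost all not called.

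The difference between the cell types was also measured with phenylephrine on both sides, in libraries that share none with the serum-free comparison. It differed from the serum-free one for 451 of 13869 genes (3.25%, edgeR interaction term, Benjamini-Hochberg adjusted p below 0.05). That number rests on single libraries. It was 1290 without cardiomyocyte replicate 2 in serum-free medium and 214 and 213 without replicates 1 and 3, 823, 185 and 227 without cardiomyocyte replicates 1, 2 and 3 with phenylephrine, 71 and 72 without fibroblast replicates 1 and 2 with phenylephrine, and 142 and 473 without fibroblast replicates 1 and 2 in serum-free medium. The log2 difference with phenylephrine was 9.41 for Myh6, 9.44 for Nppa, 8.85 for Ryr2, -5.51 for Col11a1 and -5.13 for Eln. None of the 5 was among the 451, with interaction terms, without minus with phenylephrine, of 0.39 ± 0.36, 0.16 ± 0.17, 0.46 ± 0.31, -0.46 ± 0.59 and -0.47 ± 0.45, and a missed threshold does not show that the differences were equal. Dmd was among them, with a log2 difference between cell types of 0.27 without and 1.09 with phenylephrine, and it stayed among them whichever of the 10 libraries was left out. Tgfb3 (-3.34 without and -1.94 with phenylephrine) and Itga7 (2.86 and 4.23) were as well, in the fit of all libraries and in 7 of the 10 fits that left 1 out.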

How the data were processed

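Total RNA libraries of rat heart cells were read from the deposited count table, which holds raw counts of reads per gene symbol; the submitters' processing notes name cutadapt, TopHat2 2.0.10, HTSeq 0.6.1p1, DESeq2 1.6.3 and the build Rnor_6.0, while the annotation and the strand setting are not given in the sources used here. Without the strand setting, reads of a gene and of an antisense partner cannot be told apart. The authors' deposited log2 fold change and adjusted p-value for the same comparison, per the file headers a DESeq2 output, served only for the comparison of calls. The table also holds 10 further columns of values per library, which were not used.

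All 10 libraries entered a single edgeR 4.0.16 fit (R 4.3.3) with a coefficient per group, so that the groups share an estimate of the spread. Genes were kept by filterByExpr (minimum count 10, minimum total 15), scaled by TMM and tested with the quasi-likelihood test, and p-values were Benjamini-Hochberg adjusted over all genes kept. The code was tested on simulated data. Alternatives used DESeq2 1.42.0, limma-voom 3.58.1, RLE factors, other filters, fewer libraries and a replicate block. Floors (3 counts over a group) and exact 95% intervals of count ratios cover counting error only. Genes with a 95% interval within 1.5-fold either way were counted as alike.

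Gene lists, pairs and markers were chosen with earlier results of these data known. Genes were named by a rule: the 15 largest differences in each direction at 10 CPM or more with no overlap, the 10 most abundant genes of each group, the 10 most alike genes at 200 CPM or more, up to 10 members of each list (the first 4 written, the 4 largest called and 2 against the majority), and all pairs and markers. Acadvl, Acta2, Col6a3, Gadd45g, Gjc1, Hadha, Jup, Loxl4, Tagln, Tnnt3 and the 3 miRNA loci fall outside it and were chosen after their values were seen. RefSeq promoters were given for 9880 of 13869 genes tested (71.2%), so motif shares among called genes were not compared. Some genes that the rule names are not reported here.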

Additional observations from a re-analysis of the deposited data

Results flagged for a closer look

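Of the 298 genes named in the report, 18 (6.04%) had a difference between cell types that depended on phenylephrine. The call was by the edgeR interaction term (Benjamini-Hochberg adjusted over all 13869 genes), which called 3.25% of all genes. Many of the named genes were chosen by their values in these data, so the shares are not a test. Values are the log2 difference between cardiomyocytes and fibroblasts without minus with the agonist. Among structural and adhesion genes, Dmd stood at -0.83 (adjusted p = 0.00286), Itga7 at -1.37 (adjusted p = 0.0128), Vcl at -0.89 (adjusted p = 0.0136), Itgav at -0.60 (adjusted p = 0.022) Itgb1 at -0.90 (adjusted p = 0.0284) and Fn1 at -0.68 (adjusted p = 0.0421). The chaperone Hspb7 stood at -1.08 (adjusted p = 0.0122), the anchor Akap6 at -0.70 (adjusted p = 0.0146) the T-type channel Cacna1g at 1.08 (adjusted p = 0.0102) and the titin partner Ankrd1 at -0.87 (adjusted p = 0.0485). Among growth factors and matrix genes, Tgfb2 stood at -0.80 (adjusted p = 0.00968), Tgfb3 at -1.40 (adjusted p = 0.0138), Pdgfd at -0.67 (adjusted p = 0.0478), Wnt5a at 0.73 (adjusted p = 0.0235) and Dcn at 2.69 (adjusted p = 0.0485). The factor Tead2 stood at 0.56 (adjusted p = 0.0222), the receptor Ednrb at 1.90 (adjusted p = 0.00599) and the stress gene Gadd45g at -0.95 (adjusted p = 0.0235). Dmd and Ednrb kept their calls in 10 of 10 fits that left out 1 library, Akap6, Cacna1g, Hspb7 and Tgfb2 in 8, Itga7, Tgfb3 and Vcl in 7, Gadd45g, Itgav, Tead2 and Wnt5a in 4, Ankrd1 and Itgb1 in 3, Fn1 and Pdgfd in 2 and Dcn in 1, and the sign held in each of these fits.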

How the results depend on the processing

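The counts of called genes, of genes in each direction, of alike genes, of list members called, of split isoform pairs and of pairs called in both members stayed within 1.5 times their value under RLE factors, DESeq2, limma-voom, both other filters and the 5 serum-free libraries alone. The number of genes called with a difference of at least 2-fold was 2339 when genes needed 10 CPM in 2 libraries, which leaves 9694 genes to test. Leaving out each serum-free library in turn gave 8056 to 9256 called genes, 4205 to 4807 higher, 3820 to 4449 lower, 3821 to 4108 at 2-fold or more, 3964 to 4574 alike, 963 to 1041 list members, 14 to 16 split isoform pairs and 31 to 37 pairs. No gene called both in the fit reported and in any of these 13 alternatives changed sign.

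Scaling by library size alone, chosen after seeing the data, moved the median of all genes by 0.0721 on the log2 scale and the share of calls that were higher to 57.5%, against 52.1%. Over the 13 alternatives 285 of the 298 genes named kept their side of the threshold in every alternative that tested them. A gene that an alternative did not test counts as unchanged there. Of 1768 list counts, 90 moved by more than 1.5 times.

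The replicate numbers were not taken to pair the samples: the groups share 2 numbers, and no label ties them to a day or animal. Deviations from the group means had correlations of 0.0357 and 0.0286 between same-numbered libraries. The deviations of 2 fibroblast libraries mirror each other, so each value recurs with the opposite sign (-0.0357 and -0.0286) for the other number. These correlations therefore cannot exclude a pairing. With the replicate block 8540 genes were called, 4496 higher and 4044 lower. The number of genes whose cell type difference depended on phenylephrine was the least stable result, 790 by DESeq2, 230 with the replicate block, and 71 to 1290 with 1 of the 10 libraries left out; these alternatives were chosen after seeing the data, and the cause was not tested. Low counts in fibroblasts limit the size of the largest differences.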
